A study of Mus musculus with 16 samples.

Results

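The comparison of heterozygous (*Nprl3*+/-, Het) with wild-type (*Nprl3*+/+, WT) foetal livers was made in S3 erythroblasts, the later of the sorted erythroid stages, and covers every expressed gene. Its members are the 2 Het and 4 WT libraries of that stage, chosen by the genotype and the stage in the sample titles, 6 of the 16 libraries of the series. RNA-seq was carried out on erythroblasts of stages S1 and S3, separated by their Ter119 and CD71 levels, from livers taken at E13.5, with 1 library per embryo and stage, and the series also holds *Nprl3*-/- (KO) embryos. The WT libraries came from embryos 0 and 8, which were male, and 1 and 5, which were female, whereas both Het embryos, 3 and 4, were male. The Het embryos carried 1 copy of a constitutive allele in which the *Nprl3* promoter was deleted and the α-globin enhancers were kept, on a line backcrossed to C57BL/6J mice, so that every cell of the embryo, and not only the erythroid cells, carried the deletion. RNA of the sorted cells was amplified before libraries were made. The source and tissue fields of the labels name an embryonic stem cell line, whereas their titles give foetal liver. The 10 globin genes gave 153738 to 171974 CPM (counts scaled by library size) in the Het and 141567 to 168121 CPM in the WT libraries, so the defining genes of erythroblasts were high in every library.

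*Nprl3* encodes a subunit of GATOR1, the complex that restrains the growth kinase mTORC1 when amino acids are scarce, together with Nprl2 and Depdc5. The gene lies beside the α-globin genes, and its introns hold the enhancers that drive α-globin in erythroid cells. Enhancers of this kind are themselves transcribed in erythroblasts into spliced RNA that shares exons with *Nprl3*, so reads over the gene need not come from its own promoter. S1 cells are early progenitors, and S3 cells are erythroblasts that fill with haemoglobin.

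Some libraries stood apart before any genotype was compared. WT libraries held 20666044 to 37609502 counts in total, and the Het libraries 26041199 and 26012168. On the first principal component, which held 43.8% of the variance, the male WT embryos 0 and 8 lay at −33.3 and −37.0. The female WT embryos 1 and 5 lay at 17.9 and 15.3, and the male Het embryos 3 and 4 at 17.8 and 19.5. On this component the Het libraries therefore lay with the female WT libraries and away from the WT libraries of their own sex. On the second (20.3% of the variance) the Het libraries lay at 17.1 and 10.2 and the female WT libraries at −20.9 and −5.4. The male WT embryos 0 and 8 lay at −21.3 and 20.4 there. The distance between the 2 Het libraries (0.389 on the log2 scale, root mean square over genes) was smaller than that between any other 2 of the 6 libraries, and the distances from the Het libraries ran from 0.408 to WT embryo 5 up to 0.622 to WT embryo 0. Counts of the ribosomal RNA gene *Rn18s-rs5* split the libraries in the same way, at 560 and 556 CPM in WT embryos 0 and 8 and at 184 to 236 CPM in the other 4. Whether the split of the WT libraries is one of sex was not tested, and the male Het libraries fell on the female side of it.

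**Figure D1:**
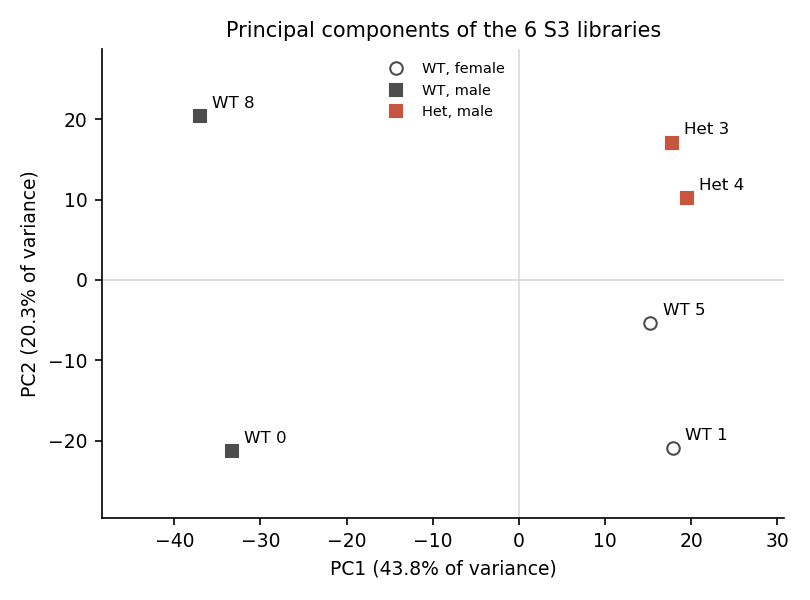
Principal components of the 6 S3 libraries, computed on log2 CPM, with the first component (43.8% of the variance) on the x axis and the second (20.3%) on the y axis. Each point is a library, with open circles for female WT, dark squares for male WT and red squares for male Het. On the first component the Het libraries sit at 17.8 and 19.5 beside the female WT libraries.

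The S1 and S3 libraries labelled as WT embryo 1 did not agree in every gene. Over 16 genes that split the libraries into a high and a low set at both stages, chosen after their values were seen, WT embryo 1 was the single embryo that changed side between the stages in 6, WT embryo 8 was in 2, and no other embryo was in any. *Zfp990*, a zinc finger gene of chromosome 4, had 0 CPM in WT embryo 1 at S3 and 17.6 CPM at S1, whereas WT embryo 5 and the Het embryos had 15.3 to 15.9 CPM at S3 and 5.74 to 6.21 CPM at S1. *Eno1b* had 5.51 CPM at S3 and 373 CPM at S1 in WT embryo 1. *Xist*, *Ddx3y* and *Uty* matched the labelled sex in all 6 S3 libraries, WT embryo 1 included. The study assigned sex from reads of chromosome Y genes, so this match was fixed in advance and is no check of the labels. The count of genes that passed the test and the values of *Nprl3* and of 3 other genes (*Kdm6a*, *Akr1e1* and *Fmr1nb*) are given with and without this library below. Without it, the list medians given further on were 0.42 for the respiratory chain, 0.37 for cytosolic ribosomal proteins, 0.24 for interferon-stimulated genes and −1.42 for hepatoblast markers, against 0.31, 0.25, 0.34 and −1.29 with it.

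The targeted gene was lower in Het by an amount that the spread between embryos did not separate from none. On the minus strand of chromosome 11 in mm39, *Nprl3* (ENSMUSG00000020289.16) spans 32175628 to 32217707. Its normalised read counts were 3184, 2847, 2921 and 4170 in WT embryos 0, 1, 5 and 8, and 3013 and 2478 in Het embryos 3 and 4. The Het values were below those of both male WT embryos, and Het embryo 3 was above both female WT embryos, so the groups overlapped. The mean was 2746 ± 378 (SD, n = 2) in Het and 3281 ± 610 (SD, n = 4) in WT. The log2 fold change was −0.26 (standard error 0.18, 95% interval −0.66 to 0.15, unadjusted p = 0.185, edgeR's quasi-likelihood test), or 0.837 times the WT level with an interval of 0.633 to 1.11. The spread behind this interval comes from both groups and, in part, from all genes, since 2 Het libraries say little of their own. Without WT embryo 8 the log2 fold change was −0.12, and without Het embryo 4 it was also −0.12. Without WT embryo 1 it was −0.32. With sex as a covariate it was −0.42 (standard error 0.14, adjusted p = 0.0566 by edgeR), and it passed the threshold by DESeq2 with sex (−0.43, adjusted p = 0.0170) and by edgeR in male embryos alone (−0.42, adjusted p = 0.0444). Against the female WT embryos alone it was −0.06 (standard error 0.11).

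The promoter end of *Nprl3* is shown because the allele is a promoter deletion. The sequence is the 250 bases before the gene's start in GRCm39 (chr11:32217708-32217957, minus strand), 5′ to 3′, identical to the RefSeq promoter entry, and capitals mark the dinucleotide CG. It holds 11 of these, against a median of 6 over the 250 bases before 32851 starts, and 35.6% of those hold as many. The bounds of the deletion were not given in the sources used here, so how much of this window it takes is unknown.

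Nprl3 promoter: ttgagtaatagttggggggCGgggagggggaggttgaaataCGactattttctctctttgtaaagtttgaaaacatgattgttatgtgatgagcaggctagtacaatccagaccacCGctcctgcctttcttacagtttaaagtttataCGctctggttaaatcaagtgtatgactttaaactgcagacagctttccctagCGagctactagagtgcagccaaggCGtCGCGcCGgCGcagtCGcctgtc

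The same embryos at S1 gave a lower *Nprl3* level in Het without overlap. At S1 the WT values were 27.5, 22.6, 24.1 and 32.6 CPM in embryos 0, 1, 5 and 8, and the Het values were 12.65 and 12.98 CPM. At S3 the WT values were 164, 146, 146 and 204 CPM and the Het values 146 and 118 CPM. The KO embryos 2 and 9, which share the WT libraries with Het, had 0.319 and 0.676 CPM at S1 and 107 and 111 CPM at S3. Counts over *Nprl3* in embryos without its promoter were thus close to 0 at S1 and near the Het range at S3. The log2 fold change of Het at S1 was −1.07 (standard error 0.24, 95% interval −1.62 to −0.52, unadjusted p = 0.0022 and adjusted p = 0.907 over all genes, edgeR). The S1 libraries of WT embryos 0 and 8, the highest for *Nprl3*, also stood apart in other genes, with globins at 7781 and 6619 CPM against 782 to 2186 CPM in the other Het and WT libraries of that stage, and neutrophil markers at 204 and 118 CPM against 1153 to 1571 CPM. Their part in the difference at S1 was not tested. The difference between the stages was 0.74 (standard error 0.27) and failed the correction over all genes (adjusted p = 1.00 and unadjusted p = 0.0167, edgeR), and it was 0.75 (standard error 0.26) without WT embryo 1. That fit left out the pairing of S1 and S3 libraries by embryo. With the embryo as a replicate block the difference was 0.73 (standard error 0.18). *Mpg*, a DNA glycosylase gene, lies within the bounds of *Nprl3* on the other strand, and the counting did not use strand. Reads where the exons of the pair overlap cannot be assigned to either gene, and their number was not measured.

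**Figure D2:**
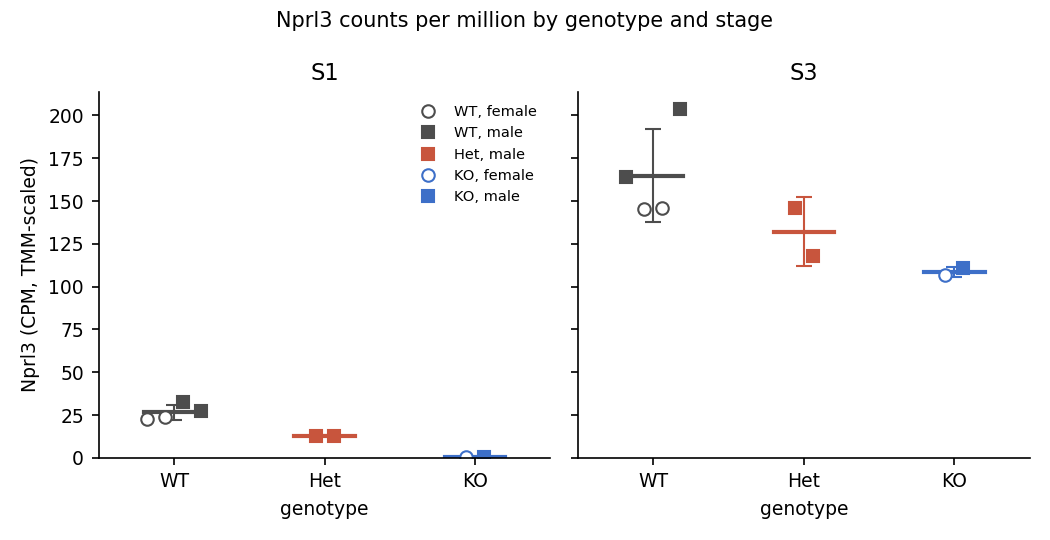
*Nprl3* in CPM (y axis) by genotype (x axis) at S1 and S3, with a point per library, bars at the group mean and error bars of 1 SD. At S1 both Het embryos (12.65 and 12.98 CPM) lie below all 4 WT embryos, whereas at S3 the Het (118 and 146 CPM) and WT values overlap.

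Over all expressed genes, no gene passed the test between Het and WT at S3. Of 11705 genes tested, 0 (0%) passed an adjusted p of 0.05 in edgeR with Benjamini-Hochberg adjustment, and the smallest adjusted p was 0.918. Without adjustment, 363 genes (3.1%) had p under 0.05, 84 higher and 279 lower in Het, fewer than the 585 expected at that threshold if no gene differed. DESeq2 called 0 genes higher and 1 lower, the X-linked histone demethylase gene *Kdm6a* (adjusted p = 0.00945). Both Het libraries lay above all WT libraries in 670 genes (5.72%) and below all of them in 794 (6.78%). The smallest two-sided p that an exact permutation of 2 against 4 libraries can give is 0.0667, so the fitted model carries every smaller p. The 95% interval of the log2 fold change lay within −1 and 1 in 73.6% of the genes and within a 1.5-fold change in 40.7%, and the median standard error was 0.21. Leaving out WT embryo 1, whose libraries disagreed between the stages, also gave 0 genes at an adjusted p under 0.05 and 1324 at an unadjusted p under 0.05. Leaving out WT embryo 5 gave 3 genes, *Zfp990*, *Eno1b* and *Gm4735*, all higher in Het and all among the genes that split the libraries at both stages. Leaving out any other embryo gave 0. P-values measure the spread between embryos, here of mixed sex in WT and of 1 sex in Het.

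The lowest unadjusted p belonged to *Kdm6a*, which demethylates histone H3 lysine residues and escapes X inactivation in females. Its normalised counts were 1729, 1650, 2055 and 2072 in WT embryos 0, 1, 5 and 8 and 1075 and 1019 in Het. Both Het libraries lay below the male and the female WT libraries alike. The log2 fold change was −0.84 (standard error 0.15, 95% interval −1.17 to −0.51, unadjusted p = 2.5e-04, adjusted p = 0.918, edgeR), and −0.89 without WT embryo 1. At S1 it was −1.09 (standard error 0.33). In KO against the same WT libraries at S3 it was −0.22. Among other X-linked genes that have a Y-linked partner, *Eif2s3x*, a translation initiation factor gene (−0.51), *Kdm5c*, a histone demethylase gene (−0.45), and *Ddx3x*, an RNA helicase gene (−0.38), also lay below all WT libraries. The neighbours of *Kdm6a* within 2 Mb that were tested, *Maoa*, *Maob* and *Fundc1*, overlapped between the groups. Of 383 tested genes of chromosome X, 18 (4.70%) had an unadjusted p under 0.05, against 3.16% of the genes of the autosomes other than 11.

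Genes with the smallest unadjusted p whose groups did not overlap were taken up to 10 in each direction, among genes with a mean of over 50 normalised counts, and are given as a description. None of the 20 passed the correction (adjusted p = 0.918 for each, edgeR). The fit with sex as a covariate called 17 of them, 10 lower and 7 higher, where 7.32% and 10.4% of all genes were called, and missed *Med9os*, *H2bc12* and *Spin1*. The genes were chosen from these same libraries, with Het beyond the male WT values too. A high share called by other fits therefore follows from the choice and is no support. The fit without the filter on low counts called 7, *Kdm6a*, *Akr1e1*, *Fmr1nb*, *F2*, *Serpinc1*, *Aadac* and *Car3*. After *Kdm6a*, those lower in Het included 3 genes that hepatocytes express, *Aadac*, a lipase gene (log2 fold change −1.59), *F2*, the prothrombin gene (−1.92), and *Serpinc1*, the antithrombin gene (−1.70). *Aadac* had 191, 108, 92.7 and 100 normalised counts in WT embryos 0, 1, 5 and 8 and 52.7 and 29.1 in Het. The enzyme genes *Akr1e1*, of an aldo-keto reductase, and *Car3*, of a carbonic anhydrase, were −2.10 and −1.69. *Marcks*, a protein kinase C substrate gene, was −0.97. The remaining genes were *Pea15a* (−1.01), *Zbtb41* (−0.88) and *Miip* (−0.43).

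*Akr1e1* had 387, 684, 141 and 411 normalised counts in WT embryos 0, 1, 5 and 8 and 85.9 and 102 in Het. Its value differed by more among the WT libraries than between WT embryo 5 and Het, and WT embryo 1, the highest at S3 with 35.0 CPM, was the lowest WT library at S1 with 5.75 CPM. Without WT embryo 1 the log2 fold change was −1.72.

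Of the 10 genes chosen in this way that were higher in Het, *Fmr1nb*, an X-linked gene next to *Fmr1*, had the largest log2 fold change, at 2.48 (standard error 0.55), or 2.16 without WT embryo 1. It had 33.6, 5.48, 13.8 and 33.9 normalised counts in WT embryos 0, 1, 5 and 8 and 79.0 and 158 in Het. Both Het values were above the highest WT value, and the level in WT differed several-fold between embryos. *Fmr1* itself overlapped between the groups (−0.26). *Spin1* had 54.1, 52.1, 52.8 and 60.7 in WT and 82.5 and 81.9 in Het (0.58), and it encodes a reader of histone marks. *H2bc12*, a histone gene, was 0.71. *Mt2*, a metallothionein gene that binds zinc, was 0.41, and *Camta1*, a transcription factor gene, was 0.54. The mitochondrial proline tRNA gene *mt-Tp* was 0.60 and *Tmem223*, of a mitochondrial membrane protein, 0.61. The others were *Med9os* (0.76), *S100a13* (0.51) and *Zbtb25* (0.45).

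**Figure D3:**
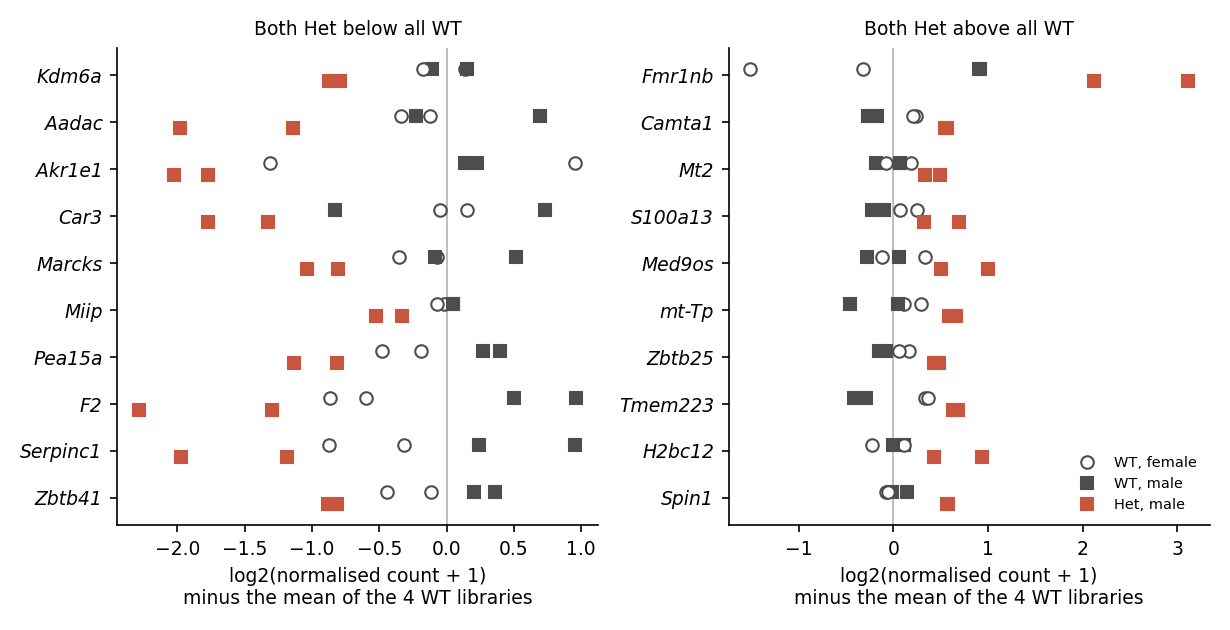
The 20 non-overlapping genes with the smallest unadjusted p, with log2(normalised count + 1) relative to the mean of the 4 WT libraries on the x axis and 1 gene per line. Open circles are female WT, dark squares male WT and red squares male Het libraries, and for each gene both Het squares fall outside the WT range, by the way these genes were chosen.

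The fit with sex as a covariate gave another picture. It called 1220 genes higher (10.4%) and 857 lower (7.32%) in Het, and 882 genes higher (7.54%) and 1401 lower (12%) in male than in female embryos. Both Het embryos are male, so in that fit the genotype term sets them against the 2 male WT libraries alone, and the sex term sets the male against the female WT libraries. Those male WT libraries are the ones that stood apart on the first component. Of the 2077 genes called for Het with sex, 464 also had both Het libraries beyond all WT libraries, 240 above and 224 below. Set against the 2 female WT embryos, an alternative chosen after the data were seen, Het had 5 genes higher and 1 lower, namely *Fmr1nb*, *Kdm5d*, *Eif2s3y*, *Uty* and *Ddx3y* higher and *Xist* lower, of which the last 5 are genes that tell the sexes apart. The genotype and whatever set the male WT libraries apart cannot be told apart with these 6 libraries.

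In the fit without sex, the α-globin locus showed no difference beyond the spread. *Hba-a1*, an adult α-globin gene on chromosome 11 from 32233511 to 32234465, had 955179, 1127430, 1135890 and 1138490 normalised counts in WT embryos 0, 1, 5 and 8 and 1212450 and 1116590 in Het. *Hba-a2*, its near-identical copy from 32246489 to 32247298, had 203168, 225084, 289799 and 302623 in WT and 309023 and 278366 in Het. The groups overlapped in both genes. The log2 fold changes were 0.10 (95% interval −0.28 to 0.47) for *Hba-a1* and 0.20 (−0.24 to 0.64) for *Hba-a2*, and reads that mapped to both copies had been left out. The embryonic gene *Hba-x* was 0.43 (−0.57 to 1.43), and *Hbb-bs* and *Hbb-bt*, the adult β-globin genes, were 0.08 and 0.14. Of the neighbours of *Nprl3*, *Mpg* was 0.03 (−0.26 to 0.33), *Snrnp25*, a spliceosome gene, 0.24 (−0.11 to 0.59) and *Rhbdf1*, an inactive rhomboid protease gene, −0.37 (−1.85 to 1.11). With sex as a covariate 1 of the 10 tested genes of the locus was called higher, against 10.4% of all genes. It was *Snrnp25* (0.41, adjusted p = 0.0318, edgeR), and *Hba-x* was 0.99 (adjusted p = 0.105, edgeR). Of the 38 tested genes within 5 Mb of *Nprl3*, 0 had an unadjusted p under 0.05, and of the 144 within 20 Mb 2 did (1.39%), against 1.86% on the rest of chromosome 11.

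**Figure D4:**
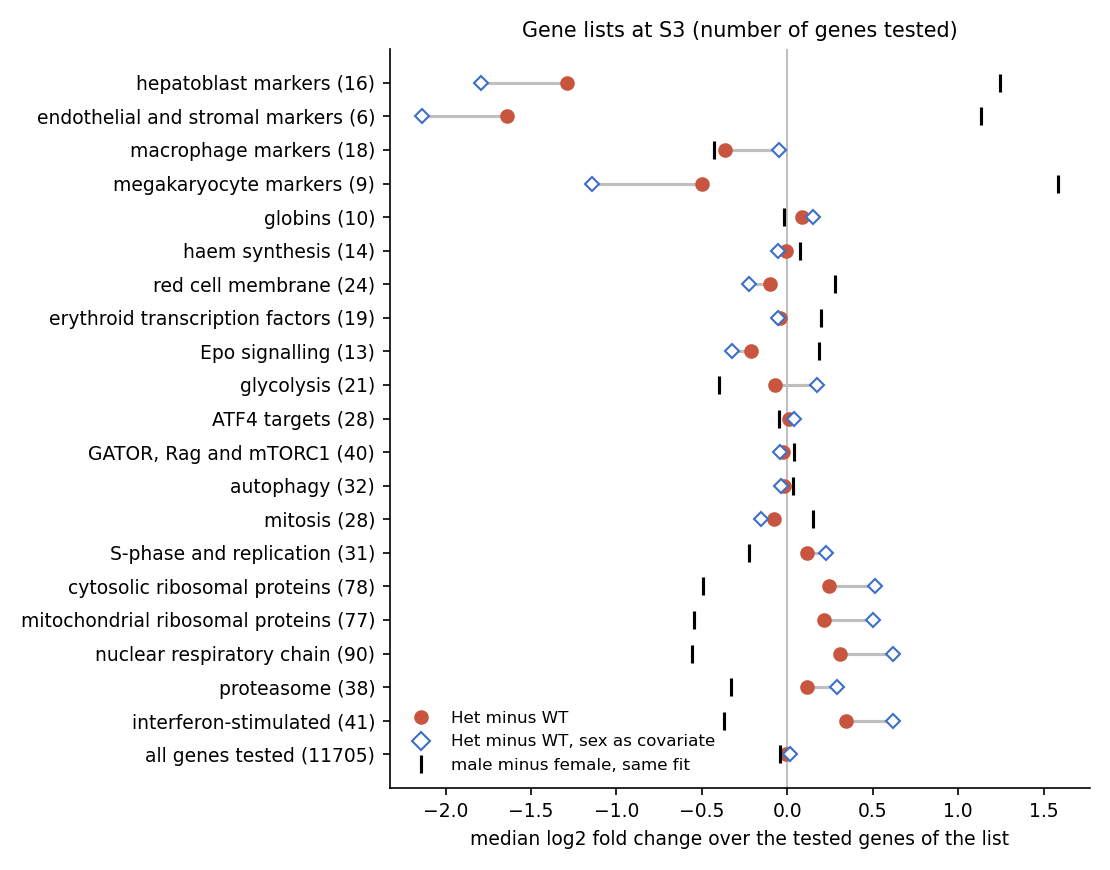
Median log2 fold change (x axis) over the tested genes of each gene list (y axis, number tested in brackets) at S3, for Het minus WT (filled circles), Het minus WT with sex as a covariate (open diamonds) and male minus female in that same fit (bars). For the ribosomal protein and respiratory chain lists the circles lie above 0 (0.21 to 0.31) and the bars below it (−0.50 to −0.56).

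Genes of the erythroid programme kept close to the median of all genes, which was −0.01. The 10 globin genes had a median log2 fold change of 0.09, the 14 genes of haem synthesis −0.01, the 19 erythroid transcription factor genes −0.04 and the 24 genes of the red cell membrane −0.10, and 0 genes of these lists had an unadjusted p under 0.05. *Alas2*, the erythroid enzyme that opens haem synthesis, was −0.12 (standard error 0.18), and *Gata1*, the erythroid master transcription factor gene, 0.10 (0.14). *Tmem14c*, which carries a haem precursor into mitochondria, had both Het libraries above all WT libraries, at 0.37 (standard error 0.19). Of 13 iron genes, *Hfe*, a regulator of iron uptake, had the lowest p, at 38.5, 42.9, 37.5 and 16.9 normalised counts in WT and 10.3 and 15.1 in Het. With sex as a covariate 3 of the 13 iron genes and 7 of the 24 membrane genes were called lower, against 7.32% of all genes, and 0 higher. *Tfrc*, the transferrin receptor gene, was among them (−0.72, adjusted p = 0.0064, edgeR) and *Hfe* was not.

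Of 13 tested erythropoietin signalling genes 2 were above 0, and the median was −0.21. *Cish*, a STAT5 target that damps erythropoietin receptor signalling, had 1377, 1346, 1422 and 1921 normalised counts in WT embryos 0, 1, 5 and 8 and 1238 and 1058 in Het. Both Het libraries were below all WT libraries, and the log2 fold change was −0.40 (standard error 0.18, unadjusted p = 0.0476, adjusted p = 0.918, edgeR). *Gab1*, an adaptor of the receptor, was −0.26 and also below all WT libraries. *Jak2*, the kinase of the receptor, was −0.37 with overlapping groups. Against the female WT embryos alone the median of the list was −0.08. It was −0.32 with sex as a covariate, where 2 of the 13 genes were called lower, against 7.32% of all genes, *Cish* (−0.52, adjusted p = 0.0369, edgeR) and *Jak2* (−0.73, adjusted p = 0.00342, edgeR).

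The other GATOR1 subunit genes differed by less than the spread between embryos. *Nprl2* had 344, 438, 332 and 285 normalised counts in WT embryos 0, 1, 5 and 8 and 329 and 358 in Het. *Depdc5* had 249, 144, 235 and 254 in WT and 206 and 224 in Het. The log2 fold changes were −0.03 for both (standard errors 0.19 and 0.24), with overlapping groups. Of the 40 tested genes of the GATOR, Rag and mTORC1 pathway, 17 were above 0 and the median was −0.03. With sex as a covariate 7 of the 40 were called higher, against 10.4% of all genes, and 4 lower, against 7.32%.

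*Fnip1*, a partner of folliculin in the amino acid branch, had the lowest p of the pathway, at 109, 74.0, 82.7 and 119 normalised counts in WT and 59.5 and 65.7 in Het (log2 fold change −0.61, standard error 0.27). It was called lower with sex as a covariate (−0.86, adjusted p = 0.0344, edgeR), as was *Fnip2* (−0.97, adjusted p = 0.0025, edgeR). *Mtor*, the kinase itself, was −0.14, and *Mlst8*, its partner, −0.30, and both lay below all WT libraries. With *Fnip1* these made 3 of the 40 tested genes below all WT libraries, against 6.78% of all genes, and 1 lay above, against 5.72%. *Rptor*, the subunit that recruits substrates, was −0.40 with overlap, and *Rheb*, the activator, 0.12. Of the Ragulator genes, which anchor the Rag proteins to the lysosome, *Lamtor3* lay above all WT libraries (0.21), and *Lamtor1*, *Lamtor2*, *Lamtor4* and *Lamtor5* ran from 0.24 to 0.45 with overlap. *Lamtor2* had 708 and 887 normalised counts in the male WT embryos, 1277 and 1404 in the female ones and 1364 and 1394 in Het, the split seen on the first component.

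Autophagy genes, which mTORC1 restrains, had a median of −0.02 over 32 genes, 15 of them above 0. In the fit with sex as a covariate 5 were called lower, against 7.32% of all genes, *Rb1cc1*, a subunit of the ULK1 complex (−0.67, adjusted p = 0.00292, edgeR), among them, and 2 higher, against 10.4%, *Map1lc3a* (0.74, adjusted p = 0.00528, edgeR) among them. *Map1lc3a*, which encodes a coat protein of the autophagosome, had 317, 453, 489 and 339 normalised counts in WT and 582 and 513 in Het (0.45, standard error 0.20). *Ulk1*, the kinase that starts autophagy, was −0.56 (standard error 0.36) with overlap. The 27 lysosomal genes had a median of 0.02, and *Tfeb*, their transcription factor gene, was −0.57 and below all WT libraries at 17.2 to 29.1 counts per library.

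Metabolic genes that the study names for its RNA-seq, with *Ldha*, the lactate dehydrogenase gene, added here, had a median near that of all genes in Het, with a sign that depended on the WT libraries used. The 12 genes had a median of −0.02, with 5 above 0 and every gene overlapping between the groups. All of them but *Ldha* were chosen by the study on these same samples. *Phgdh*, which opens serine synthesis, had 2438, 2782, 2853 and 1980 normalised counts in WT embryos 0, 1, 5 and 8 and 2488 and 2707 in Het. *Psph*, the last enzyme of that route, was 0.19 (standard error 0.28) and *Pfkp*, a phosphofructokinase gene, −0.19 (0.20). In KO against the same WT libraries the median of the 12 genes was 0.82, with 1.56 for *Psph* and 2.22 for *Pfkp*. The signs of *Aldoa*, *Gpi1*, *Pgk1*, *Psat1* and *Tpi1*, which lay from −0.17 to −0.01, turned positive (0.08 to 0.37) with sex as a covariate. In that fit the median of the 12 genes was 0.24, and *Gpi1*, *Ldha* and *Psph* were called higher (log2 fold changes 0.37, 0.44 and 0.63, adjusted p = 0.0279, 0.0422 and 0.0270, edgeR), against 10.4% of all genes. Against the female WT embryos the median was −0.23. The 21 tested genes of glycolysis had a median of −0.07, or 0.17 with sex as a covariate, and the 28 targets of ATF4, the transcription factor of the amino acid response, 0.01.

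Genes of mitochondrial respiration and of ribosomes were slightly higher in Het by sign. Of 90 tested nuclear genes of the respiratory chain, 89 were above 0 and 32 had both Het libraries above all WT libraries, with a median of 0.31, against 5.72% above among all genes, and 3 had an unadjusted p under 0.05, a share near the 3.1% of all genes. Of 78 cytosolic ribosomal protein genes 75 were above 0 (median 0.25), with 18 above all WT libraries. Of 77 mitochondrial ribosomal protein genes 72 were above 0 (median 0.21), with 6 above all WT libraries, a share near that of all genes. None of the genes of these 3 lists passed the correction.

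*Ndufa3*, a complex I subunit gene, had 1944, 3623, 4515 and 2865 normalised counts in WT embryos 0, 1, 5 and 8 and 5180 and 4810 in Het (log2 fold change 0.63, standard error 0.27, unadjusted p = 0.0436, edgeR). *Rps29*, a small ribosomal subunit gene, had 3952, 7211, 8716 and 5838 in WT and 9330 and 9074 in Het. In both genes the male WT libraries were the lowest, the female ones came next and the Het ones were highest. Against the female WT embryos alone the medians were 0.07 for the respiratory chain, 0.02 for the cytosolic and −0.04 for the mitochondrial ribosomal proteins. With sex as a covariate they were 0.62, 0.51 and 0.50. In that fit 74, 59 and 55 genes of these lists were called higher, of which 31, 17 and 5 were above all WT libraries, against 10.4% of all genes called higher and 240 of 11705 both called and above all WT libraries. The 11 tested genes encoded in mitochondrial DNA had a median of 0.15.

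These lists hold short genes, and gene length moved with the libraries. In 5 sets of equal number by exon length, the median log2 fold change of Het was 0.15, 0.06, −0.0049, −0.06 and −0.12 from the shortest to the longest genes. Between male and female WT it was −0.34, −0.19, −0.04, 0.08 and 0.19. In the shortest genes, of 54 to 1839 bases, the median difference from the WT mean was −0.17 and −0.14 in WT embryos 0 and 8, 0.18 and 0.16 in WT embryos 1 and 5, and 0.17 and 0.20 in Het embryos 3 and 4. The Het libraries lay with the female WT libraries in that set and on the other side of 0 from the male ones. The part of gene length in the list values was not tested.

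**Figure D5:**
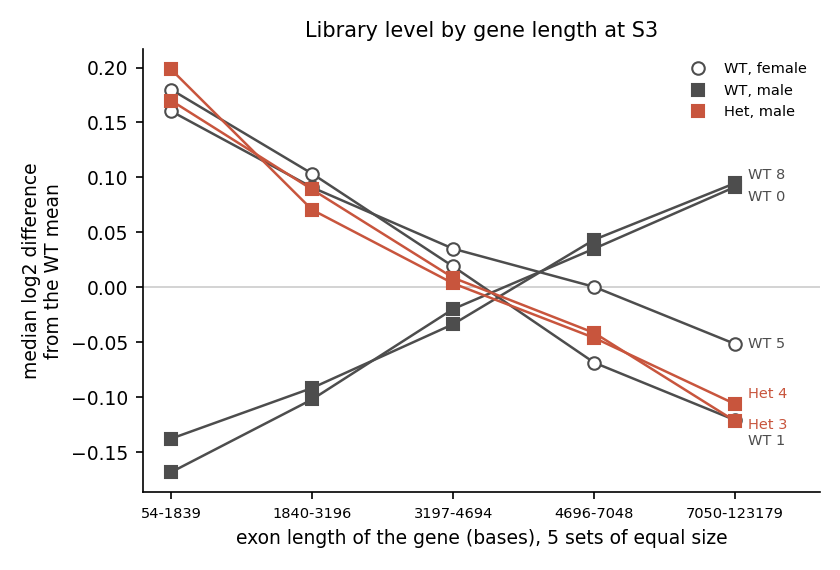
Median log2 difference of each library from the WT mean (y axis) in 5 sets of genes of equal size by exon length in bases (x axis), with a line per S3 library. In the shortest set the Het lines start at 0.17 and 0.20 with the female WT lines (0.16 and 0.18), whereas the male WT lines start at −0.17 and −0.14.

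Interferon-stimulated genes were higher in Het embryo 4 than in Het embryo 3. Of 41 tested genes 33 were above 0, with a median of 0.34, and 2 lay above all WT libraries, a share below the 5.72% of all genes. *Isg15*, a ubiquitin-like interferon gene, had 408, 488, 1258 and 421 normalised counts in WT embryos 0, 1, 5 and 8 and 970 and 1868 in Het embryos 3 and 4. WT embryo 5 was above Het embryo 3, so the groups overlapped (log2 fold change 1.14, standard error 0.44, unadjusted p = 0.0303, edgeR). *Samd9l*, an antiviral gene, was 1.40 on 4.57 to 21.6 counts per library, and *Cmpk2*, a mitochondrial nucleotide kinase gene, was 0.38, and both were above all WT libraries. *Irf7*, a transcription factor gene of the response, had 968, 595, 1888 and 684 in WT and 1355 and 2404 in Het. Without Het embryo 4 the median of the list was −0.01, so that library decides its value, and without WT embryo 5 it was 0.62. Fitted with sex as a covariate it was 0.62, and 6 of the 41 genes were called higher, against 10.4% of all genes, *Isg15* among them (log2 fold change 1.78, adjusted p = 0.0117, edgeR) and all with overlapping groups. The fit without the filter on low counts called *Isg15* and *Irgm1*. In KO against the same WT libraries the median was 2.24.

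Markers of liver cells were lower in Het by sign, and none passed the correction in the fit without sex. Of 16 tested hepatoblast markers 0 were above 0, 9 had both Het libraries below all WT libraries, against 6.78% of all genes, and 11 had an unadjusted p under 0.05, with a median of −1.29. *Alb*, the albumin gene, had 3088, 783, 576 and 1620 normalised counts in WT embryos 0, 1, 5 and 8 and 423 and 516 in Het. *Afp*, the α-fetoprotein gene, had 7630, 1838, 1258 and 5109 in WT and 794 and 1347 in Het, with WT embryo 5 below Het embryo 4. *Rbp4*, the retinol carrier gene, had 966, 486, 445 and 720 in WT and 326 and 364 in Het. The summed level of the list was 175 to 226 CPM in Het and 251 to 1039 CPM in WT, with the male WT libraries at 1039 and 621 CPM. Without WT embryo 0 the median was −0.80, and against the female WT embryos −0.43. With sex as a covariate it was −1.79, and 13 of the 16 markers were called lower, against 7.32% of all genes, 9 of them below all WT libraries. Without the filter on low counts, which changed the estimate of the spread, edgeR called 52 genes lower and 5 higher, and 10 of these 57 were hepatoblast markers.

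Endothelial and stromal markers had a median of −1.64 over 6 genes, and their summed level was 5.94 to 6.95 CPM in Het and 8.201 to 33.5 CPM in WT. *Stab2*, a scavenger receptor gene of the liver sinusoid, had 134, 48.4, 29.1 and 28.2 normalised counts in WT and 9.16 and 8.62 in Het, and *Lyve1* followed it (−2.39, standard error 0.74). Without WT embryo 0 the median of that list was −0.62 and against the female WT embryos −0.30, whereas with sex as a covariate it was −2.14, with 4 of the 6 called lower, against 7.32% of all genes. These RNAs were a small part of each library, and fewer cells of a type and less RNA per cell cannot be told apart in sorted bulk samples. Their part in the comparison of other genes was not tested.

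Macrophage markers, which erythroblastic islands contain, were below 0 in all 18 tested genes, with a median of −0.37, and summed to 77.0 to 109 CPM in Het and 78.4 to 163 CPM in WT. *Vcam1*, an adhesion gene of island macrophages, had 159, 112, 125 and 109 normalised counts in WT and 76.7 and 74.3 in Het (−0.74, standard error 0.23), below all WT libraries. *Ctsh* and *Fcna* were the other markers of the list below all WT libraries, which makes 3 of 18 against 6.78% of all genes. With sex as a covariate the median of the list was −0.05, and 1 gene was called lower. Megakaryocyte markers had a median of −0.50 over 9 genes, with *Pf4*, a platelet chemokine gene, at 539 in WT embryo 0 and 34.7 to 71.1 in the other 5 libraries, and against the female WT embryos the median was 0.22. The median was −1.14 with sex as a covariate, and 2 of the 9 were called lower, against 7.32% of all genes. Neutrophil markers summed to 1.13 to 2.56 CPM in Het and 1.11 to 4.86 CPM in WT, with *Ly6g*, *Mmp8*, *Ngp* and *Retnlg* at 0 in all 6 libraries. Lymphoid and mast cell markers summed to 1.28 to 1.43 CPM in Het and 0.207 to 2.71 CPM in WT, with *Cd3e* and *Klrd1* at 0 in all 6 libraries, and none of that list was tested.

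Among genes of the cell cycle, the 31 genes of S phase and replication had a median of 0.12, with 26 above 0 and none beyond all WT libraries, and the 28 genes of mitosis had a median of −0.08, with 3 above all WT libraries, against 5.72% of all genes. *Mki67*, the proliferation marker gene, was −0.26 (standard error 0.16), and *Cdk1*, the mitotic kinase gene, was 0.17 and above all WT libraries. The 38 genes of the proteasome had a median of 0.11 and the 24 of sterol synthesis −0.15. In the fit with sex as a covariate 11 genes of S phase (median 0.22) and 13 of the proteasome (median 0.29) were called higher, against 10.4% of all genes, and 5 of mitosis (median −0.15) lower, against 7.32%. In that fit 1 gene of S phase was called lower, *Pola1* (−0.36, adjusted p = 0.0268, edgeR). Of the 24 genes of sterol synthesis 4 were called lower and 2 higher.

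Between the stages, the effect of the Het genotype differed in no gene that passed the test. Of 13204 genes tested over both stages, 0 (0%) passed at an adjusted p of 0.05 in edgeR and 369 an unadjusted p under 0.05, and DESeq2 called 0. The count expected at that unadjusted threshold if no gene differed is 660. At S1 alone, Het against WT gave 0 of 13790 genes at an adjusted p under 0.05 and 576 at an unadjusted p under 0.05. KO against the same 4 WT libraries at S3 gave 60 of 11756 genes by the same test with the same number of libraries per group. The 2 comparisons differ in sex, since KO embryo 2 was female and KO embryo 9 male, whereas both Het embryos were male.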

How the data were processed

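Libraries were grouped by the genotype, stage and embryo number in the sample titles. The genes described and the gene lists were chosen with earlier results of these data known. The authors mapped reads to mm39 with STAR 2.7.9 and made the counts with featureCounts 1.6.4 on the Ensembl annotation, and deposited the raw counts. By the header of the table, pairs of reads were counted without regard to strand, and reads mapping to several places or several genes were left out. The table holds 55416 genes, and 4 columns that match no sample analysed here were not used.

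Counts were scaled by TMM and tested with edgeR 4.0.16 (glmQLFit, glmQLFTest) in R 4.3.3 on the 6 libraries, without covariates, after genes with a mean of 10 or fewer normalised counts had been left out, with Benjamini-Hochberg adjustment and a threshold of 0.05. CPM were computed from all 16 libraries. The interaction was fitted over both stages. Gene lists were described by counts and medians, without a test. Named genes were *Nprl3* and its locus, the metabolic genes the study names for its RNA-seq with *Ldha* added, the sex-chromosome genes, up to 10 non-overlapping genes of smallest p in each direction with a mean over 50, and the 2 of smallest p in each list. Others named in the text were chosen after their values were seen. Predicted genes were not named by the p rule, and a few genes of the lists are not reported here singly. A gene was said to split the libraries where a gap of over 1.5 in log2(CPM + 0.1) at both stages made up over 0.9 of the range. Alternatives were DESeq2 1.42.0, other scalings, filters, samples and covariates, and leaving out each embryo. The female WT alternative and the split were chosen after seeing the data. The scripts were tested on simulated counts.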

Additional observations from a re-analysis of the deposited data

Results flagged for a closer look

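Of 111 values tested over the 4 WT libraries, 5 had 1 library far from the other 3 by Dixon's test at the 95% level, which chance alone does for about 1 in 20. In WT embryo 0, *Aadac*, a lipase gene, had 191 normalised counts against 92.7 to 108 in the other WT embryos. In the same library *Hba-a1* had 955179 normalised counts, below 1127430 to 1138490 in the other WT embryos, and *Taldo1*, a gene of the pentose phosphate pathway, had 25820, below 31751 to 32675. In WT embryo 8, *Cish* had 1921 normalised counts against 1346 to 1422. In WT embryo 5, *Isg15* had 1258 against 408 to 488, so its interferon level was nearer to those of the Het embryos (970 and 1868). No explanation of these values was tested.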

How the results depend on the processing

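edgeR called 0 genes in either direction with DESeq2 size factors, upper-quartile scaling, globin genes left out of the scaling, filterByExpr, the KO libraries or all 16 libraries in the fit, the newer quasi-likelihood method and a limit of 0.6 on the log2 fold change. Higher and lower counts were 5 and 52 without the filter, 0 and 1 by DESeq2, 1248 and 838 by DESeq2 with sex, 1220 and 857 by edgeR with sex, 1452 and 1158 in male embryos alone, 1435 and 1118 with KO and sex, and 5 and 1 against the female WT embryos. Leaving out 1 embryo gave 0 to 3 higher, the 3 without WT embryo 5, and 149 to 1324 genes at an unadjusted p under 0.05. *Nprl3* passed the threshold by DESeq2 with sex (−0.43) and in male embryos alone (−0.42), was −0.06 against the female WT embryos, and ran from −0.40 to −0.12 when each embryo was left out. These fits with sex rest on 2 male WT libraries, and the cause of the change was not tested.

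Signs turned in these genes. *Gpi1* was 0.0033 with DESeq2 size factors, 0.000824 with upper-quartile scaling and 0.0035 by DESeq2. In the order DESeq2 with sex, edgeR with sex, male embryos alone, and KO with sex, *Aldoa* was 0.23, 0.24, 0.24 and 0.22, *Gpi1* 0.36, 0.37, 0.36 and 0.33, *Pgk1* 0.16, 0.17, 0.16 and 0.12, *Psat1* 0.069, 0.079, 0.067 and 0.095, and *Tpi1* 0.35, 0.36, 0.36 and 0.29. The Y-linked *Ddx3y* was −0.38, −0.37, −0.37 and −0.38, *Eif2s3y* −0.34, −0.33, −0.34 and −0.34, *Kdm5d* −0.16, −0.15, −0.16 and −0.16, and *Uty* −0.33, −0.32, −0.33 and −0.33. With all 16 libraries *Mpg* was −0.035, *Ldha* −0.037, *Phgdh* −0.026 and *Shmt2* −0.067, the median of all genes being −0.08. Against the female WT embryos *Hbq1a* was 0.0066, *Gpt2* 0.011, *Ldha* −0.26, *Phgdh* −0.10, *Pkm* −0.053, *Psph* −0.13, *Shmt2* −0.15, *Sdhd* −0.016, *Rb1cc1* 0.010, *Slc25a37* 0.057, *Mpo* 0.0080 and *Epb41* 0.036. Leaving out 1 embryo gave −0.18 to 0.13 for *Aldoa*, −0.13 to 0.14 for *Gpi1*, −0.19 to 0.92 for *Hba-x*, −0.12 to 0.18 for *Ldha*, −0.00982 to 0.064 for *Mpg*, −0.054 to 0.11 for *Phgdh*, −0.27 to 0.010 for *Psat1*, −0.97 to 0.052 for *Rhbdf1*, −0.14 to 0.13 for *Shmt2* and −0.23 to 0.094 for *Tpi1*.

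No paired analysis was possible because the Het and WT embryos at S3 share no replicate number. The S1 and S3 libraries of a number share an embryo by their titles, and with the embryo as a replicate block the interaction called 0 genes and gave *Nprl3* 0.73 (standard error 0.18). Without the filter it called 6 genes. Depth did not limit *Nprl3*, which had over 2000 reads in each S3 library of the comparison, whereas 2 Het embryos of 1 sex limit every value.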

Other observations

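Genes that split the libraries at both stages gave values outside the comparison. *Rmi2*, a gene of the dissolution of DNA crossovers, had 11.4 and 9.24 CPM in WT embryos 0 and 8 at S3 and 0.333 to 0.768 CPM in the other 4 libraries, and the same 2 embryos were high at S1 (8.62 and 2.84 CPM). *C1qtnf12*, a secreted protein gene, had 2.96 CPM in WT embryo 0 at S3 and 17.4 to 42.2 CPM in the others, with WT embryo 0 again lowest at S1 (5.09 CPM). *Gm4735*, like *Eno1b* and *Zfp990*, was high at S3 in WT embryo 5 and both Het embryos (59.8 to 89.4 CPM) and low in WT embryos 0, 1 and 8 (1.79 to 5.89 CPM). At S1 it was also high in WT embryo 1 (274 CPM).

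*Capn11*, a calpain protease gene, had 74.3 normalised counts in Het embryo 4 and 0 in the other 5 libraries, so it is a value of 1 library. *Fbxo6*, a ubiquitin ligase gene, had 393, 594, 1261 and 446 normalised counts in WT embryos 0, 1, 5 and 8 and 1348 and 1377 in Het. It was named after its values were seen, and the fit without the filter on low counts called it at a log2 fold change of 1.01. *Hspa1b*, a heat shock gene, had 7.38 to 40.2 in WT and 85.9 and 24.8 in Het.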
